A study of Mus musculus with 12 samples.

Results

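Of the 34118 accessible peaks called in wild-type (WT) C2C12 myoblasts, 9318 had no overlapping peak in Runx1 knockout (KO) cells, and 4213 of these lay inside gene bodies. A peak was taken as inside a gene body when its centre was within an annotated mouse gene and more than 1 kb from both ends of every gene, so that the annotated outer starts and ends of genes were left out. A further 513 WT-specific gene-body peaks carried an entry in an unlabelled extra column of the deposited list and were kept apart. Gene bodies also held 10267 WT peaks that overlapped a KO peak by at least 1 bp (shared peaks), which served as the comparison. The 4213 peaks made up 28.1% of the 14993 WT peaks inside gene bodies, and this percentage is the background for every share of peaks below. The background for counts of protein-coding genes with such a peak was 45.6% (2485 of the 5455 with any gene-body WT peak).

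C2C12 is an established line of mouse myoblasts, the proliferating precursors that fuse into myotubes once serum is lowered. The peaks were measured by ATAC-seq, in which the Tn5 transposase cuts open DNA and inserts sequencing adapters. The groups used were WT cells and cells labelled Runx1KO, both undifferentiated (day 0) and grown with 20% fetal bovine serum, with 3 samples each. Samples of the same genotypes at day 2 of differentiation, 3 in each group, were not analysed here. How the knockout was made, and whether it was 1 clone or several, is not given in the sources used here. The names of all peaks carried the label of the replicate 1 library of their genotype. Each genotype is therefore represented by 1 peak call, so replicate error could not be measured and no test between genotypes was made. The intervals below are 95% Wilson intervals for shares and order-statistic intervals for medians. They treat peaks, or start windows for the motif shares, as units, cover counting error only and describe these lists.

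RUNX1 is a DNA-binding transcription factor that pairs with CBFB, recognises a short TGTGGT core and can activate or repress genes, partly through corepressors of the TLE and histone deacetylase families. Much of the regulatory DNA of mammalian genes lies within introns, where enhancers and alternative promoters appear as short stretches of accessible chromatin. In myoblasts such elements are bound by myogenic factors together with broadly used factors of the AP-1, TEAD and RUNX families. Runx1 itself is transcribed from a distal and a proximal promoter, the latter inside the gene.

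Sequence could be read at annotated transcription starts among these peaks. RefSeq (GRCm38.p6) start windows, each covering 250 bases before an annotated start and 50 after it, were available for 1954 of the 2485 protein-coding genes that held a WT-specific gene-body peak (78.6%). Among the 3300 WT-specific gene-body peaks in a gene with a listed window, 100 shared at least 1 base with the window of an annotated start of that gene (3.03%, interval 2.50 to 3.67), called an internal start here because the peak lay more than 1 kb from the ends of the gene. Of these, 81 peaks held the start base itself. In 51 of the 100 (51%) the start was the outermost one listed for its gene, although the annotated gene extends farther. In 49 it lay inside that outermost start, with no minimum distance (0.202 kb in Chst15). Whether each of the 49 is a separate promoter was not tested. The following 8 sequences are the bases before the internal start that lay within the WT-specific peak. They were chosen after their values were seen, as Runx1 itself, the 3 genes of this set with the strongest peaks, and 4 examples with a RUNX core. All 8 starts belong to the 49. They are written 5′ to 3′ on the strand of the gene, and capitals mark matches to any of the 7 motifs listed after them.

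Runx1 proximal promoter, chr16:92697330-92697499, minus strand: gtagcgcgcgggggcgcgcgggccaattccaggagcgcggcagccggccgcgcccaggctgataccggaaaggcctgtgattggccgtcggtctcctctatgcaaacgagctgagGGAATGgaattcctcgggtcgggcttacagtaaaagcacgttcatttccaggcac

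Taf11, chr17:27907745-27907982, minus strand: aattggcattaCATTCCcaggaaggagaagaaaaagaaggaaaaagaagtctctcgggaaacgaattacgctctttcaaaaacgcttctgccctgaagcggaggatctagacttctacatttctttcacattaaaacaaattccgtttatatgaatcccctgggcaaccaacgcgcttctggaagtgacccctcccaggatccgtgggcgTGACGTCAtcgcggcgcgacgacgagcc

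Pld1, chr3:27983921-27984170, plus strand: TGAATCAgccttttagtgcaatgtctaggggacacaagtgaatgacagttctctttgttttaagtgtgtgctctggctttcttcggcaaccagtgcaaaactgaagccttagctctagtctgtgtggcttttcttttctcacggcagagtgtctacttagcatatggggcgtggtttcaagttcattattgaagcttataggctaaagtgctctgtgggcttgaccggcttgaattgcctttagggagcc

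Cald1, chr6:34709297-34709443, plus strand: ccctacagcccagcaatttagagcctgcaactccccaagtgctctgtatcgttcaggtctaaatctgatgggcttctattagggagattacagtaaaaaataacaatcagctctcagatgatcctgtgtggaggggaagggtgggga

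Limk2, chr11:3371405-3371630, minus strand: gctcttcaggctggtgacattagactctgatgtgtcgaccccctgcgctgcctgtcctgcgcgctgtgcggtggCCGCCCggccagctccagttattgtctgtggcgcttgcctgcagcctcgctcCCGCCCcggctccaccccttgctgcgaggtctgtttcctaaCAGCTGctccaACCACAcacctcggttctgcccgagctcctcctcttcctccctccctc

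Csrp1, chr1:135729043-135729166, plus strand: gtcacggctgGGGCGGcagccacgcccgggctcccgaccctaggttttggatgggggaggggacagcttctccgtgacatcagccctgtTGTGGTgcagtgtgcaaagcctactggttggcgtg

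Akt2, chr7:27605655-27605796, plus strand: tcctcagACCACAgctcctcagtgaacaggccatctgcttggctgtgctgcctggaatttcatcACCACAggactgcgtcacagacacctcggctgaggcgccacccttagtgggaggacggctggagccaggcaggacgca

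Zfp661, chr2:127584678-127584843, minus strand: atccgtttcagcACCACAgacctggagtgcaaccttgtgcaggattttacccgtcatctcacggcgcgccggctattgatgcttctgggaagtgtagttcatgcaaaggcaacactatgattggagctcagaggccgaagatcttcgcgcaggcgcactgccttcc

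The WT-specific peak at the Runx1 proximal promoter spanned chr16:92697264-92697499, with a deposited −log10 q of 11.2 and a deposited fold over local background of 6.0. Its start lies 129 kb inside the gene from the outermost listed start, and the nearest KO peak was 0.349 kb away. That KO peak, chr16:92696620-92696914, overlapped a stronger shared WT peak at chr16:92696576-92696925, with a −log10 q of 29.1 in the WT list. The shared peak lay 0.338 kb from the WT-specific one, so DNA close to this promoter was accessible in both lists. The 170 bases shown held 1 match to the TEAD motif and none to the RUNX core. Taf11, which encodes a subunit of the general transcription factor TFIID, had the highest value of the set, −log10 q 28.7 and fold 12.7, with the nearest KO peak 67.5 kb away. The capitals in its sequence are a TEAD match and a CRE match. Pld1, a phospholipase D, followed with −log10 q 27.7 and fold 11.1 at a start 45.5 kb into the gene. The capitals there are an AP-1 match, and the nearest KO peak was 0.926 kb away.

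Cald1 encodes caldesmon, an actin-binding protein, and its internal start lay 111 kb into the gene with −log10 q 23.5 and fold 9.29. Its sequence held none of the 7 motifs. Limk2, a kinase that acts on cofilin, had −log10 q 20.2 and fold 6.99 at a start 37.8 kb into the gene, with matches to RUNX, E-box and SP/KLF. Csrp1, an actin-associated LIM protein, had −log10 q 14.9, fold 7.48 and matches to RUNX and SP/KLF. Akt2, a kinase of insulin signalling, had 2 RUNX matches at −log10 q 8.06 and fold 5.54. The zinc finger gene Zfp661 had 1 RUNX match at −log10 q 17.3 and fold 10.3. Among these 8 genes the internal start lay from 1.5 kb (Taf11) to 129 kb (Runx1) inside the outermost listed start.

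The motifs searched, on both strands of the whole 250 bases before each start, whether or not the peak covered all of them, were TGTGGT for RUNX, CCGGAAGT for ETS, TGANTCA for AP-1, CAGCTG for a myogenic E-box, GGAATG for TEAD, GGGCGG for SP/KLF and TGACGTCA for CRE. The RUNX core was present in 14 of the 109 start windows of WT-specific peaks (12.8%), in 105 of the 839 of shared gene-body peaks (12.5%) and in 13.9% of all 32618 listed windows. Windows with a RUNX core were thus about as frequent in WT-specific peaks as in any listed window. The AP-1 motif was present in 14 WT-specific windows (12.8%, interval 7.81 to 20.4), in 60 shared windows (7.15%, interval 5.60 to 9.10) and in 6.78% of all windows (interval 6.51 to 7.06). The WT-specific interval overlaps that of the shared windows and lies above that of all windows. These intervals take windows as units, although the 109 windows came from 100 genes and some share bases, as in Eif4g3, Trmo and Pdzd9. Of the 7 motifs examined, SP/KLF also had a WT-specific interval that overlaps the shared one and lies above that of all windows. The TEAD motif was present in 15.6% of WT-specific, 11.1% of shared and 12.6% of all windows, and the E-box in 11%, 13.1% and 13.1%. SP/KLF was present in 45.0% of WT-specific (interval 35.9 to 54.3), 55.5% of shared (interval 52.2 to 58.9) and 33.0% of all windows (interval 32.5 to 33.5). The ETS motif was found in 2.75%, 5.48% and 2.90% of these sets, and the CRE in 0.917%, 2.03% and 1.56%. The median GC content of the windows was 57.6% in the WT-specific set and 60% in the shared set, against 52.4% for all windows. A match describes letters in the window and not a bound site, and the 7 motifs were not corrected for base composition.

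Shared gene-body peaks met the window of an internal start more often than WT-specific ones. Of 7992 shared peaks in genes with a listed window, 728 did so (9.11%, interval 8.50 to 9.76), beside the WT-specific 3.03%. Counting only peaks that held the start base, the shares were 8.35% (667, interval 7.76 to 8.97) and 2.45% (81, interval 1.98 to 3.04). Of the 728, the start was the outermost listed one in 428 (58.8%). The order was the same in each band of peak strength, from 2.37% against 6.23% in the weakest band to 3.85% against 10.9% in the strongest. The intervals overlapped in both of the strongest bands. They were 3.50 to 7.70 and 7.32 to 9.62 from 15 to 25, and 1.06 to 13.0 (2 of 52 WT-specific peaks) and 9.78 to 12.0 at 25 or more. Over all gene-body peaks, shared ones were also wider at the median in each band, for example 387 bp against 273 bp from 15 to 25. The shares at internal starts were not adjusted for width. The median −log10 q at internal starts was 9.32 for the WT-specific class and 22.5 for the shared class. Of the 100 genes, 33 had a shared WT peak within 1 kb of an annotated end of the gene, 2 had only a WT-specific one and 65 had none. Over all 2485 protein-coding genes with a WT-specific gene-body peak, 48.0% had none. In 51 of the 100 the start met by the peak was the outermost listed one. There an annotated end without a peak is not a listed start without a peak.

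WT-specific gene-body peaks were weaker than shared ones, with values that overlapped widely. Their −log10 q ranged from 1.32 to 49.7 with quartiles of 5.74, 8.49 and 12.2, and the interval of the median was 8.24 to 8.69. Shared peaks ranged from 1.33 to 291 with quartiles of 12.3, 20.0 and 32.1, and the interval of the median was 19.6 to 20.3. The upper quartile of the WT-specific peaks was thus close to the lower quartile of the shared ones. The deposited fold gave the same order, with a median of 6.51 (range 2.72 to 20.9) for WT-specific and 9.97 (range 3.10 to 28.2) for shared peaks. The WT-specific peaks covered 1160 kb in all and the shared ones 4417 kb.

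The share of WT-specific peaks fell as peaks became stronger. Below a −log10 q of 7, 1556 of 2429 gene-body WT peaks were WT-specific (64.1%, interval 62.1 to 65.9). The share was 49.1% from 7 to 10, 33.4% from 10 to 15 and 15.7% from 15 to 25. At 25 or more, 71 of 3997 were WT-specific (1.78%, interval 1.41 to 2.23). Seen from the other side, 36.9% of the WT-specific peaks but 6.88% of the shared ones were below 7, whereas 1.69% and 38.1% were at 25 or more. Both peak calls carry the name of 1 library, and their depth is unknown. A WT peak without a KO peak therefore cannot be told apart from a KO signal just below the threshold of its call.

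**Figure D1:**
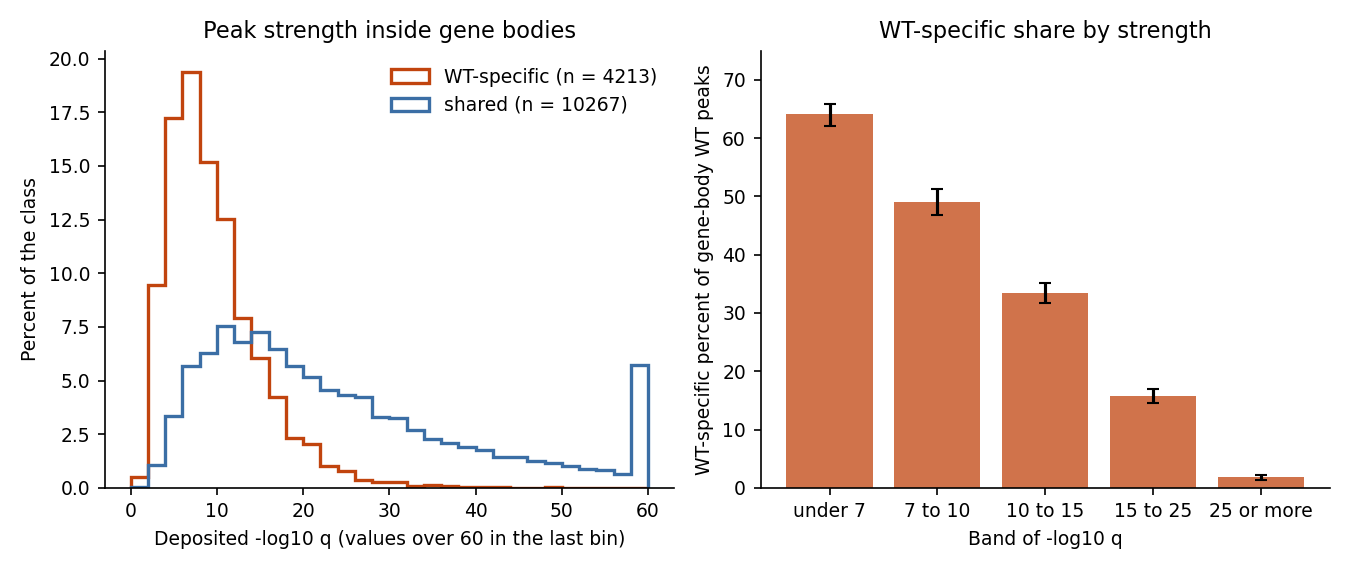
The left panel shows the deposited −log10 q (x axis) of WT-specific and shared gene-body peaks as the percent of each class per bin (y axis), with values over 60 collected in the last bin. The right panel shows the percent of gene-body WT peaks that were WT-specific in 5 bands of −log10 q, with 95% Wilson intervals, falling from 64.1% to 1.78%.

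Within each band of strength, WT-specific peaks were narrower at the median. Their median width was 244 bp (interval 239 to 248), with quartiles of 183 and 336 bp, against 392 bp for shared peaks, with quartiles of 280 and 536 bp. The median was 215 bp against 246 bp for peaks below a −log10 q of 7, 264 bp against 336 bp from 10 to 15, and 339 bp against 476 bp at 25 or more. The fold differed little within the bands up to 25, at 5.09 against 5.26, 8.05 against 8.07 and, from 15 to 25, 10.1 against 10.1. The strongest band has no upper limit, and there the shared peaks had the higher median fold, 13.9 against 13, and reached a higher −log10 q. Within the range of −log10 q from 7 to 15, 57.6% of peaks under 200 bp were WT-specific, as were 42.7% of those from 200 to 300 bp, 38.2% of those from 300 to 400 bp and 27.5% of the next wider bin. A narrow peak has fewer bases with which to meet a KO peak by 1 bp. The part of that rule in the width difference was not tested.

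**Figure D2:**
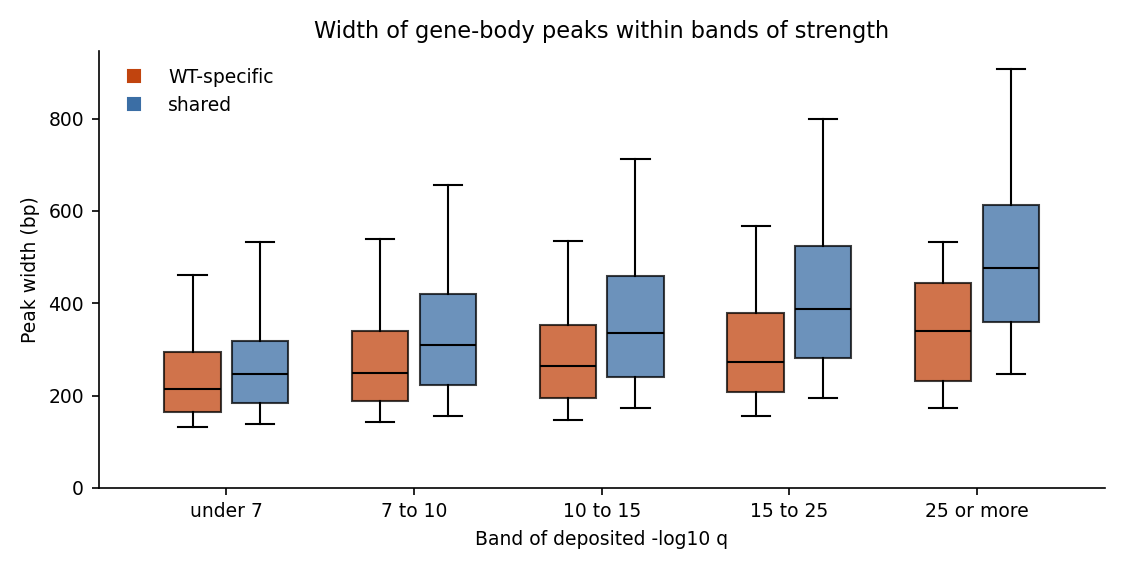
Peak width in bp (y axis) of WT-specific and shared gene-body peaks is shown within 5 bands of deposited −log10 q (x axis), with the median as a line, quartiles as a box and whiskers from the 5th to the 95th percentile. In every band the WT-specific median was lower, from 215 bp against 246 bp in the weakest to 339 bp against 476 bp in the strongest.

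Position within the gene separated the classes little. The median distance to the nearest gene end was 12.0 kb (interval 11.5 to 12.6) in the WT-specific class and 11470 bp in the shared class. The WT-specific share was between 26.5% and 29.5% in 4 bins of distance to a gene end and between 25.5% and 29.9% in 5 bins of host gene length. Across 20 chromosomes it ranged from 25.5% on chromosome 15 (237 of 930 peaks) to 32.5% on chromosome 5 (287 of 884, interval 29.5 to 35.6). Outside gene bodies, 1503 of the 10356 WT peaks near gene ends were WT-specific and unmarked (14.5%), as were 2609 of the 8769 intergenic WT peaks (29.8%). Over all WT peaks the share was 24.4% (8325 of 34118). Gene-body peaks resembled intergenic ones in this share and differed from those at gene ends. The shares of these positions were not adjusted for the strength or width of their peaks. The 3 peaks just inside the 1 kb limit, in 2310033P09Rik, Pef1 and Mcf2l with Gm15353, lay 1001.0, 1012.0 and 1016.0 bp from a gene end with −log10 q of 8.96, 6.23 and 10.9. The 3 just outside, at Lsm12, Gm31005 and Atp8b2, lay at 999.0, 997.0 and 996.5 bp with 8.58, 10.2 and 9.55.

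KO cells also had peaks inside gene bodies that were absent from the WT list, 1308 in number. Over all positions, 2607 of the 27187 KO peaks were KO-specific, and the share among KO gene-body peaks was not computed. The 1308 were not divided by the unlabelled column, so the like WT count is 4726 (31.5% of gene-body WT peaks). The median −log10 q of the 1308 within the KO list was 8.19, their median width 250 bp and their median fold 6.22. The peaks specific to either genotype thus had like widths, each within its own list. The 513 marked WT-specific peaks had a median −log10 q of 9.09 and a median width of 286 bp.

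Most WT-specific gene-body peaks had no KO peak within 5 kb. The median distance to the nearest KO peak was 12.9 kb (interval 12.2 to 13.7), with quartiles of 5.01 and 32.6 kb. A KO peak lay within 500 bp of 133 of them (3.16%) and within 5 kb of 1047 (24.9%). For scale, the nearest other WT peak of any class lay at a median of 9.47 kb. The nearest other WT-specific gene-body peak was farther, at a median of 70.5 kb, and 637 (15.1%) had such a neighbour within 10 kb. These peaks are far fewer than the 27187 KO peaks, and the distances were not adjusted for the size of the lists. The peak numbers of the KO list skip values, so some numbered KO calls are not among its peaks. For 4205 WT-specific peaks with a KO peak on either side, 570 (13.6%) lay between KO peaks with consecutive numbers, and the median number of skipped values was 2. Among the 220 peaks with a −log10 q of at least 20, 17 lay between consecutive KO numbers. The KO numbers rose along every chromosome, but where the skipped KO calls lay within such a gap is unknown. The share of consecutive numbers was not computed for shared peaks or for all gaps between KO peaks. It therefore sets no WT-specific peak apart, here or in the genes named below.

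The 10 strongest WT-specific gene-body peaks lay in genes of varied function. The highest, in Ccdc158, spanned chr5:92649614-92649797 with a −log10 q of 49.7 and a fold of 20.9, and was 24.7 kb from the nearest KO peak. It was narrow for its strength, at 184 bp. Emilin2, which encodes an extracellular matrix glycoprotein, followed with 42.0 at chr17:71264687-71265172, 7.26 kb from a KO peak. Baiap2, which encodes an adaptor protein of the actin cytoskeleton, held a peak of 41.4 at chr11:119969911-119970298. Nkd2, an inhibitor of Wnt signalling, held a peak of 38.9 at chr13:73842722-73843028, 38.5 kb from a KO peak. Nr3c1, the glucocorticoid receptor gene, held a peak of 38.3 that was 6.06 kb from a KO peak. The others lay in Gm33228 (37.4), Clec16a (37.0), Fam20c (36.5), Slamf9 (36.2) and Dlg2 (35.5). The peak in Slamf9, a gene of the SLAM family of immune receptors, lay between consecutively numbered KO peaks, 31.1 kb from the nearest. That in Fam20c, a secretory kinase, had a KO peak 1.14 kb away.

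The peaks were spread over many genes. They lay in 3140 genes of every type, of which 1770 (56.4%) also held a shared gene-body peak. Of the peaks, 3653 (86.7%) lay in a protein-coding gene, as did 87.1% of shared gene-body peaks, and 238 (5.65%) lay in 2 or more genes at the same time. Of 5455 protein-coding genes with a gene-body WT peak, 2485 held a WT-specific one (45.6%). Of these 2485, 1775 held 1 and 432 held 2. At least 3 were found in 278 genes, which is 5.10% of the 5455 and holds 28.6% of the peaks in protein-coding genes.

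Genes with WT-specific gene-body peaks were long, with a median of 77.9 kb against 42.4 kb for genes with gene-body WT peaks but no WT-specific one. Of the 2485 genes, 1517 (61.0%) also held a shared gene-body peak, 968 did not and 904 had no KO peak in the gene body at all. A KO-specific gene-body peak was found in 378 (15.2%), against 277 of 2970 (9.33%) of the genes without a WT-specific one. The longer genes offer more room for both, and these shares were not adjusted for length. At the ends of the 2485 genes, 1117 (44.9%) had a shared WT peak, 174 (7.0%) had only WT-specific ones and 1194 (48.0%) had none. Genes with shared but no WT-specific gene-body peaks had nearly the same shares, 42.6%, 7.34% and 50%.

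Long genes led by number. Dst, which encodes dystonin, a linker of the cytoskeleton to adhesion structures, held the most, with 10 WT-specific, 8 shared and 2 marked peaks over 401 kb. Its 10 peaks had −log10 q from 2.69 to 20.6 (median 7.24), and its 8 shared peaks from 13.1 to 86.8 (median 28.8). Nav2, a neuron navigator gene, followed with 9 WT-specific and 15 shared peaks over 651 kb, and its WT-specific values ran from 3.05 to 11.1. Lrmda and Arhgap26, the latter encoding a GTPase-activating protein, held 8 each, with 10 and 5 shared peaks. The 8 of Arhgap26 ran from 1.33 to 24.2. Mbp, Efna5, Iqsec1, Fggy, Snx29 and Rad51b held 7 each, as did Foxp1 and Plcb1, which had fewer per length. In each of the first 10 genes the median −log10 q of the WT-specific peaks was below that of the shared ones.

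**Figure D3:**
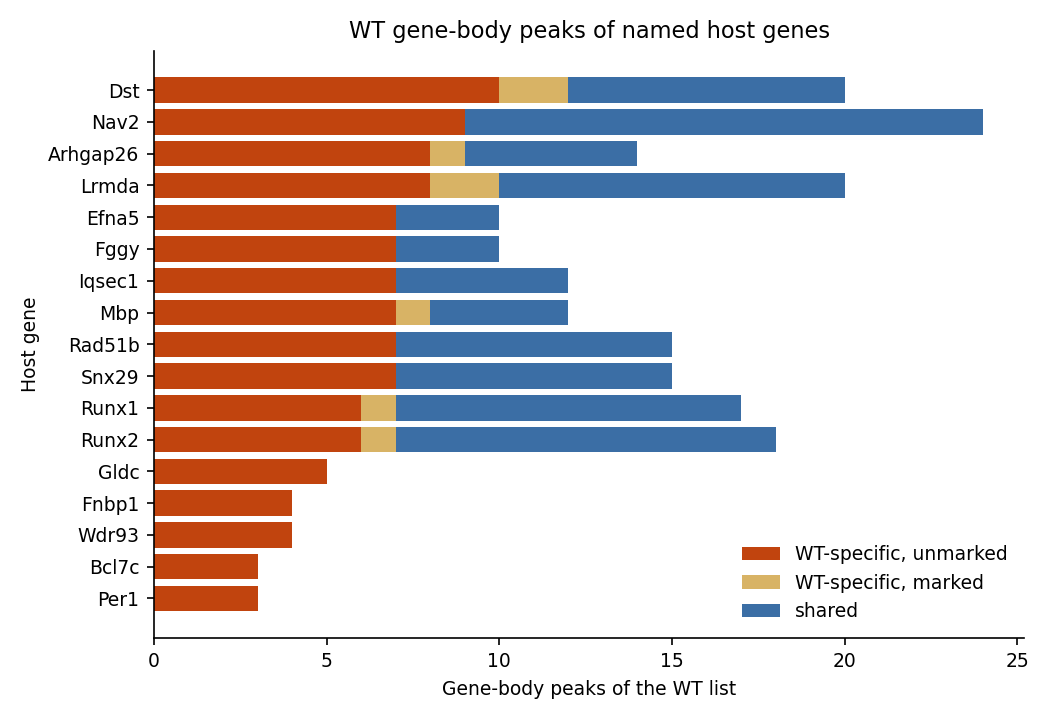
The number of gene-body peaks of the WT list (x axis) is stacked by class for 17 host genes (y axis). Dst had the most WT-specific unmarked peaks, 10 of 20, and Gldc, Fnbp1, Wdr93, Bcl7c and Per1 had no shared gene-body peak.

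In some genes the WT-specific peaks lay side by side. Runs of at least 3 consecutive WT peaks that were all WT-specific gene-body peaks occurred in 84 protein-coding genes. These are among the 278 genes with at least 3 such peaks, of 5455 with any gene-body WT peak. Runs of at least 4 occurred in 22 genes and of at least 5 in 8. How many runs a 28.1% share of peaks would give by itself was not computed, so the counts do not show clustering. The longest run was in Efna5, which encodes ephrin-A5, a ligand of Eph receptors. All of its 7 WT-specific peaks followed each other from 154.21 to 256.83 kb from the lower-numbered end of the gene, and all of its 3 shared peaks lay within the first 88.46 kb. The −log10 q of the 7 were 7.03, 7.87, 9.37, 2.51, 14.4, 5.56 and 8.85 in order of position, and those of the 3 shared peaks were 36.7, 11.3 and 63.4. Only 1 WT-specific value, 14.4, was above the lowest of the shared ones. The nearest KO peak was between 22.5 and 91.9 kb away, and 10 KO peak numbers were skipped over this stretch.

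Fggy, which encodes a carbohydrate kinase, held a run of 5. Its 7 WT-specific peaks had −log10 q of 4.30, 10.0, 25.3, 12.2, 27.6, 10.2 and 18.1 in order of position. The 3 shared gene-body peaks had 26.4, 13.4 and 26.5, so that here the values of the classes overlapped. The peak of 27.6, at chr4:95656426-95656792, was 6.89 kb from the nearest KO peak and lay between consecutively numbered KO peaks. The peak of 12.2 had a KO peak only 0.112 kb away without overlap.

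Gldc, which encodes the decarboxylase of the glycine cleavage system, had 5 WT-specific gene-body peaks and no other WT peak. Their −log10 q were 11.9, 5.20, 11.4, 10.6 and 3.95 in order of position over 77.0 kb of gene. The nearest KO peak was 76.8 to 106 kb away, with 4 skipped KO numbers. The gene body of Gldc thus held peaks in the WT list only, all below a −log10 q of 12. Fnbp1, a formin-binding protein gene, and Wdr93 held 4 each without a shared gene-body peak. The peaks of Fnbp1 had 13.2, 4.54, 9.32 and 6.28, and those of Wdr93 had 8.42, 3.26, 2.40 and 4.86. The Fnbp1 peak of 6.28 lay 0.0855 kb from the outermost listed start of that gene.

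Among protein-coding genes with at least 3 WT-specific gene-body peaks, Per1 had the most relative to length, with 3 WT-specific peaks in 14.9 kb. Per1 is a core gene of the circadian clock and responds to glucocorticoids. Its values were 9.60, 4.38 and 17.0, all between 1.79 and 7.21 kb from the nearest KO peak, and 5 KO peak numbers were skipped there. The annotated gene extends beyond its outermost listed start. The peak of 9.60 lay 1.79 kb before that start, the peak of 4.38 lay 0.0990 kb before it, and the peak of 17.0 lay 3.61 kb after it. A shared peak lay at an end of the gene. Pdlim2, which encodes a PDZ and LIM domain protein of the actin cytoskeleton, held 3 in 15.1 kb with 16.5, 7.77 and 8.90. Wdr93, Ltbp4, a gene of latent TGF-beta binding, and Dot1l, the histone H3K79 methyltransferase gene, came next, with 4, 3 and 3 peaks. Bcl7c, a gene of a chromatin remodelling subunit, held 3 peaks of 20.2, 11.5 and 6.71 and no shared gene-body peak.

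**Figure D4:**
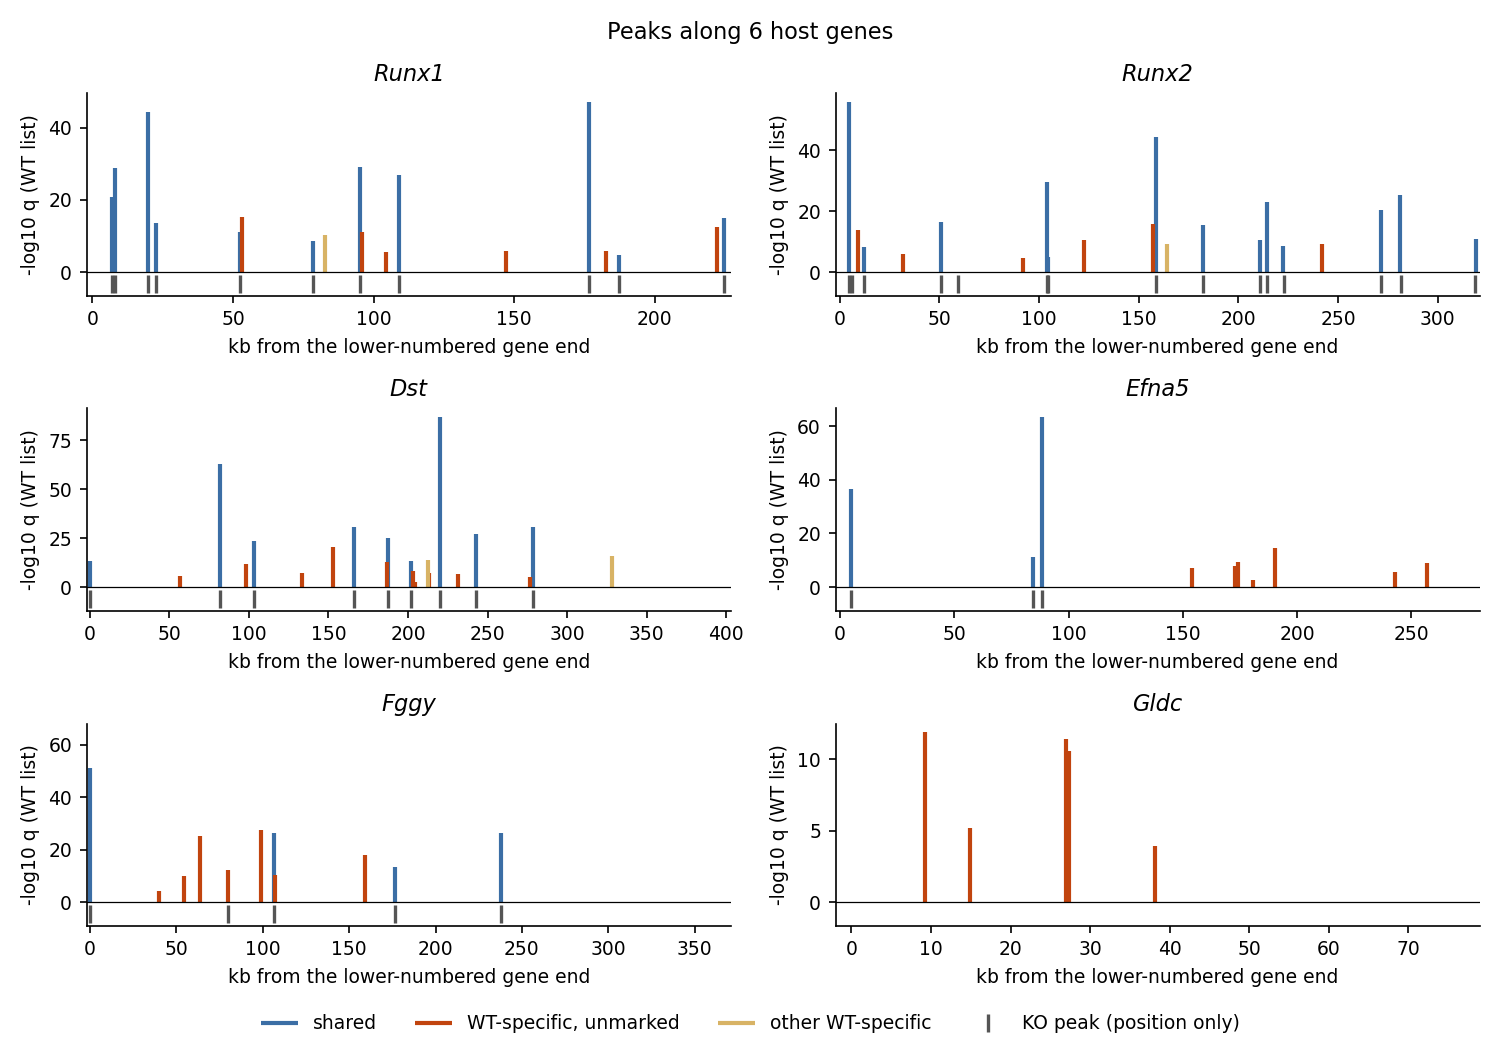
Each panel shows the deposited −log10 q of WT peaks (y axis) along 1 host gene in kb from its lower-numbered end (x axis), coloured by class, with the positions of KO peaks as ticks below. In Efna5 the 7 WT-specific peaks form a stretch without KO peaks, in Gldc all 5 peaks are WT-specific, and in Runx1, Runx2 and Dst WT-specific and shared peaks are interspersed.

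The RUNX genes themselves were hosts. Runx1 held 6 WT-specific, 10 shared and 1 marked gene-body peaks over 225 kb. The −log10 q of the 6 were 15.4, 11.2, 5.67, 5.71, 5.91 and 12.6 in order of position, and the shared ones ranged from 4.71 to 47.2 (median 23.9). The strongest, at chr16:92654635-92654968, had a KO peak 0.514 kb away. The peak at chr16:92748364-92748579 lay 29.3 kb from the nearest KO peak, between consecutively numbered KO peaks. Runx2, the RUNX gene of bone formation, held 6 WT-specific and 11 shared peaks, and 2 KO-specific ones. Its WT-specific values were 13.7, 5.82, 4.70, 10.4, 15.7 and 9.29. Runx3 held 1 WT-specific peak of 16.5 and 1 shared peak of 27.4. A list of 14 genes of the RUNX family, its partner and corepressors had 19 WT-specific peaks among 69 gene-body peaks (27.5%), beside 28.1% over all genes. Tle3 and Hdac4 held 2 each. This RUNX list was therefore no richer in WT-specific peaks than gene bodies in general.

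Further gene lists were described by their share of WT-specific peaks, next to the share that the strength of their peaks would give from the band values above. These lists are counts of peaks of 1 peak call and have no test. Lists of adhesion, signalling and matrix genes were close to the background. Extracellular matrix genes had 38 of 124 (30.6%, 29.4% from strength), with 4 each in Col18a1 and Col5a1, collagen genes, and 3 in Fbn1, the fibrillin-1 gene. Growth factor and TGF-beta genes had 29 of 90 (32.2%, 32.5% from strength), with 4 each in Smad3, a mediator of TGF-beta signals, and Bmpr1b, a BMP receptor gene. Axon guidance genes had 39 of 120 (32.5%, 32.7% from strength), and 32 of 110 (29.1%) without Efna5. Genes of fusion and adhesion had 32 of 116 (27.6%), with 6 in Kirrel3, an immunoglobulin superfamily adhesion gene, and 3 each in Adam19, Dock5, Trio and Dock1. The values of the 6 Kirrel3 peaks were 13.4, 7.47, 4.30, 6.07, 8.58 and 11.3.

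Cytoskeletal linkers were also near the background. The dystrophin complex, costamere and linker list had 35 of 118 (29.7%, 24.7% from strength), and 25 of 98 (25.5%) without Dst. Plec, the plectin gene, held 4 with −log10 q of 20.2, 7.67, 12.9 and 26.7, and Ank2 held 4.

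The lists of transcription factors and contractile genes had shares below 28.1%, over few peaks and with no test of the difference. From strength, 21.9 peaks would be WT-specific in the sarcomere list, 11.8 in the myogenic list and 8.86 in the TEAD list. Sarcomere and calcium handling genes had 16 of 82 (19.5%, 26.8% from strength). Ldb3, a Z-disc protein gene, held 3 of these with 8.72, 25.9 and 10.8, and Myom2, an M-band gene, held 2 with 14.6 and 11.6. Myogenic transcription factors had 9 of 50 (18.0%, 23.5% from strength), in 7 of 13 genes. Of these, Tcf4 held 3, and Pax7, the satellite cell factor gene, held 1 of 15.4 at chr4:139771191-139771414, its only WT peak in the gene body, 54.4 kb from the nearest KO peak. The TEAD and YAP/TAZ list had 8 of 37 (21.6%, 24.0% from strength), with 3 in Amotl1, a YAP-binding angiomotin gene. ETS genes had 2 of 21 (9.52%, 21.7% from strength), a peak of 19.3 in Ets1 and a peak of 10.1 in Etv6. AP-1 genes had 1 of 10 (10.0%, 18.4% or 1.84 peaks from strength), a peak of 15.6 in Jdp2. The last 2 lists hold few peaks, and 1 gene moves their shares, to 6.67% for ETS without Ets1 and to 0 of 7 for AP-1 without Jdp2.

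Genes that mark other cell types had the highest share of the gene lists described here. The list of 30 genes held 31 gene-body peaks at 12 genes, of which 17 were WT-specific (54.8%, 36.4% from strength). Mbp, the myelin basic protein gene, held 7 of them, with −log10 q of 16.2, 8.38, 3.29, 9.70, 25.2, 3.74 and 11.4. Mbp also held 4 shared peaks, so accessible sites in this gene were present in both lists. Without Mbp the list had 10 of 19 (52.6%). Alpl, the alkaline phosphatase gene of bone, held 3 and no shared peak, with 19.1, 23.6 and 1.64, at 69.5 to 105 kb from the nearest KO peak. Col2a1, Kdr, Pecam1, Cdh1, Pparg, Rbfox3 and Syt1 held 1 each. No WT peak lay in or within 1 kb of Ptprc, Cd3e, Epcam or Adipoq, markers of leukocytes, T cells, epithelium and fat cells. Other markers of epithelium and fat cells had peaks, with 1 WT-specific peak in Cdh1 and 4 WT peaks in Pparg, of which 2 were shared and 1 was a WT-specific gene-body peak. Over the whole list, 13 of 30 genes had a WT peak. Of 9 myoblast genes, 8 had one, all but Myf5, and WT-specific gene-body peaks occurred only in Ncam1, which had 2. The part of other cell types in the WT-specific peaks was not tested.

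**Figure D5:**
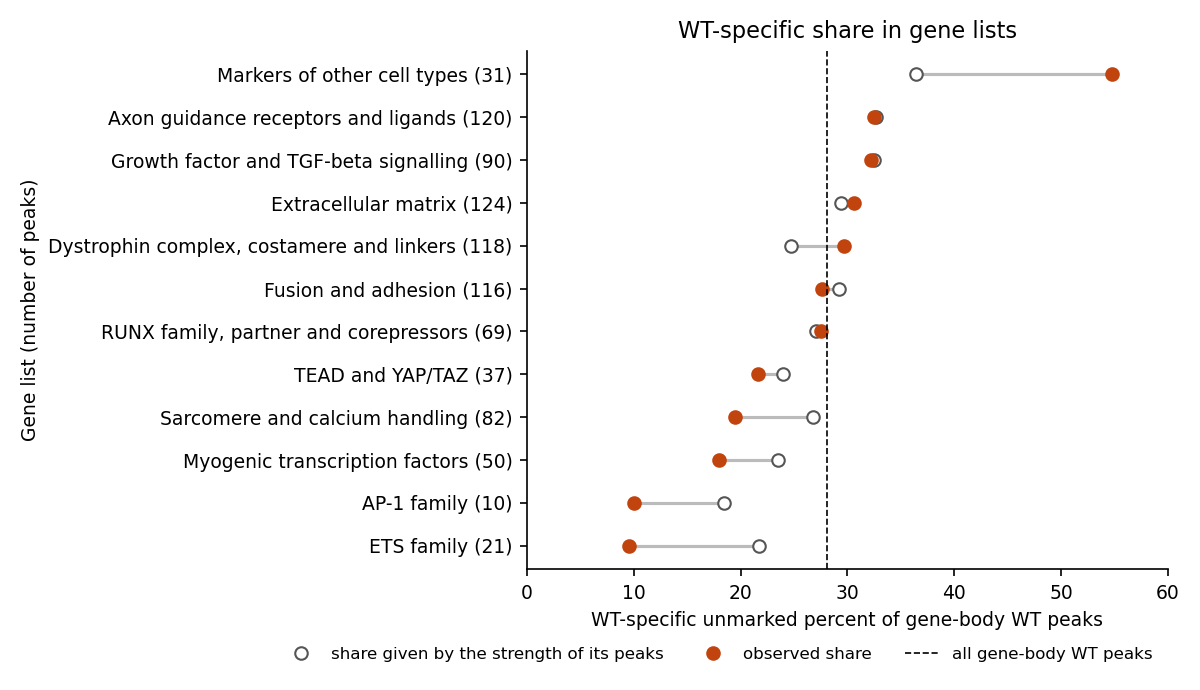
Filled points give the percent of gene-body WT peaks that were WT-specific (x axis) in each gene list (y axis, number of peaks in brackets), open points the percent given by the strength of the same peaks, and the dashed line the 28.1% of all gene-body WT peaks. Markers of other cell types had the highest share, 54.8%, and ETS genes the lowest, 9.52%.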

How the data were processed

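The deposited peak lists have 10 or 11 unlabelled columns in narrowPeak layout. The fold over local background (a ratio) and the −log10 q of each peak are the authors' deposited values. They come from 1 peak call per genotype, named for 1 library, and were used only within a list. The summit offset and the entry in the extra column are, as deposited, other values of each peak. The build is mm10 per the submitters' processing notes. Aligner, peak caller, filters and the treatment of the Tn5 offset are not given in the sources used here, and depth is unknown. These steps set how many peaks are called and how wide they are.

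Gene positions and start windows came from RefSeq tables of GRCm38.p6. No start window of chromosome 18 was used. Peak overlap of at least 1 bp gave the deposited shared and specific lists exactly. Host genes were all genes holding the peak centre. The computed steps used Python 3.11.15, numpy 2.4.6, pandas 2.3.3, scipy 1.17.1 and bedtools 2.31.1, and passed 5 of 5 checks on simulated data with known answers. The share given by strength is the mean, over the peaks of a list, of the WT-specific share in each peak's −log10 q band.

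The peaks, gene lists and comparisons were chosen with earlier results of these data known. Named were the RUNX genes, the 10 protein-coding genes with the most WT-specific gene-body peaks (ties by number per length), the 5 densest with at least 3, the 5 with most and no shared peak, the 10 strongest peaks, and in each list the genes with at least 3 or the leading 2. From these, those with the most informative values are printed. Genes at internal starts were chosen after their values were seen. Motif counts inside peaks were planned, and only start windows were searched, since no genome sequence was used here. The result of 1 further gene list is not reported here.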

Additional observations from a re-analysis of the deposited data

Results flagged for a closer look

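Of the 4726 WT-specific gene-body peaks, 513 (10.9%) carried an entry in the unlabelled extra column of the deposited list. They stand here because the content of that column entered no comparison: it served only to keep these peaks apart. What the entry means is not given in the sources used here, and nothing was tested on it.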

How the results depend on the processing

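Each of 8 results was recomputed under 8 alternatives. In 46 of 64 cases the value moved by less than its interval or, for counts, by less than 1.5 times. Each result is a count, a share or a median without a direction, so a reversal could not be tested. The median distance to a gene end was 10.8 kb with a limit of 500 bp, 13.8 kb with 2 kb and 21.0 kb with protein-coding genes only, as the rule itself sets this distance. With protein-coding genes only, 62.2% of host genes held a shared peak. With marked peaks kept, the WT-specific share was 31.5%. With a −log10 q of at least 10, there were 1611 peaks in 1447 host genes, a share of 15.4%, a median −log10 q of 13.6, a median width of 270 bp, a median distance to a KO peak of 12.2 kb and 58.9% of host genes with a shared peak. When a KO peak within 500 bp also made a peak shared, the share was 27.2% and the distance to a KO peak 13.7 kb. When an overlap of at least 50% was required, the share was 30.7%, the median −log10 q 8.82, the width 257 bp and the distance 11.1 kb. The cause was not tested beyond what each rule fixes by construction. No paired analysis was possible because each list holds 1 peak call, named for 1 library. For the same reason no replicate could be left out. Whether the other replicates entered the filtering of peaks is unknown. The planned motif windows around summits were not run. Unknown depth limits every statement on absence from the KO list.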
